A study of Mus musculus with 34 samples.

Results

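S100a9, Cd177, Csf3r and Cxcl5 are 4 genes whose products are best known from neutrophils or from the recruitment of neutrophils, and their transcripts were followed here in macrophages sorted from the mouse colon. The genes were chosen by name, with earlier results of these data known, out of 9851 gene symbols listed in at least 1 of 3 deposited expression tables, and all 4 were listed in each table. The study measured RNA of colonic lamina propria macrophages in 34 libraries of 10 groups, and its title places macrophages without the alpha chain of the interleukin-10 receptor (Il10ra) and their IL-23 at the centre of gut inflammation. Cells were sorted as CD45+ CD11b+ CD64+ with intermediate CD11c and without Ly6c or CD103, all from C57BL/6 mice.

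The first table held 3 libraries titled CXhet and 3 titled IL10R, from untreated mice of 6 to 7 weeks. In the rescue table stood 2 libraries titled CX, 5 titled IL10R and 4 titled IL10R_P19 (untreated), and 4 titled IL10R_abx and 3 titled IL10R littermate_abx, whose mice had antibiotics in the drinking water, all at 6 to 7 weeks. The neutrophil table came from bone marrow chimeras at 4 weeks after chimerism, with wt (4 libraries), ko_igg (3) and ko_ly6g (3) as titles. The titles are not spelled out in the labels; here IL10R and ko were read as Il10ra deficiency, P19 as additional loss of the p19 subunit of IL-23, abx as antibiotics, igg as a control antibody and ly6g as the antibody against Ly6g that removes neutrophils. For every chimera library the treatment label names injection of the Ly6g antibody; since the titles separate ko_igg from ko_ly6g, groups were taken from the titles. The Cre driver or allele behind the deficiency, the meaning of CX and CXhet, the littermates' genotype and the host cells left in the chimeras are not stated by the labels. The labels do not say whether libraries of 1 group came from separate animals, so a p-value measures library-to-library spread that may be technical only.

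Neutrophils are made in the bone marrow under the cytokine G-CSF, whose receptor is encoded by Csf3r and is also carried by monocytes and macrophages. Tissue cells call neutrophils in with chemokines that hold a glutamate-leucine-arginine motif and act on the receptor CXCR2, and Cxcl5 encodes 1 of these, made by epithelial and myeloid cells. S100a9 encodes 1 chain of calprotectin, an abundant neutrophil and monocyte protein that binds zinc, manganese and calcium and pairs with the product of S100a8, and Cd177 encodes a surface protein of neutrophils that partners with the adhesion molecule PECAM1.

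The stretches upstream of the start sites are shown because S100a9, Cd177 and Csf3r moved differently across the groups, and because C/EBP, NF-kB and STAT factors are known for acting on genes of myeloid inflammation. RefSeq promoters on build GRCm38.p6 matched 3 of the 4 genes, and the 250 bases before each start are given on the gene's strand, with matches in capitals. The S100a9 stretch lies at chr3:90695722-90695971, minus strand, that of Cd177 at chr7:24760312-24760561, minus strand, and that of Csf3r at chr4:126024409-126024658, plus strand.
S100a9: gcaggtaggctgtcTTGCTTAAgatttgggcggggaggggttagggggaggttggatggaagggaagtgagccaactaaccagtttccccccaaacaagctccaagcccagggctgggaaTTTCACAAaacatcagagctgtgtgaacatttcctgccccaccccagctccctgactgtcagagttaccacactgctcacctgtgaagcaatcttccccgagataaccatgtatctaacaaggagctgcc
Cd177: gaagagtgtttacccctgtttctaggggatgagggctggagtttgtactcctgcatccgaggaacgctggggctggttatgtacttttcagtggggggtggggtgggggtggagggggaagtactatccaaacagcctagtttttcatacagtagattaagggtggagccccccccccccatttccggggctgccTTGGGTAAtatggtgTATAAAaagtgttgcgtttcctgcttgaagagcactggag
Csf3r: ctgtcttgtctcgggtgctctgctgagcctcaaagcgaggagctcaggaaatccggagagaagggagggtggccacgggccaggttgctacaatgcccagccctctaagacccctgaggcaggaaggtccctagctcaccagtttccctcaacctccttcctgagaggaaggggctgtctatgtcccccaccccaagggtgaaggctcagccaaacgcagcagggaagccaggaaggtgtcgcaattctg
Searched on both strands were TATAAA, the C/EBP form TTNNGNAA, the NF-kB form GGNNTTTCC and the STAT form TTCNNNGAA, and no 2 matches overlapped. S100a9 held 2 C/EBP matches on the opposite strand, beginning 236 and 130 bases before the start. In Cd177 a C/EBP match began 55 bases and a TATAAA 40 bases before the start. Of 32851 RefSeq promoter stretches of the same length, 36.8% held the C/EBP form, 12.4% TATAAA, 7.02% the STAT form and 4.93% the NF-kB form. The Csf3r stretch held none of the 4 strings, which says only that these letters are not in this window.

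Values are reads per gene scaled by 1 factor per library, as deposited, and are called scaled values. Recovered reads per library ranged from 1458726 to 2487074 (first table), from 747046 to 2775974 (rescue table) and from 1028567 to 4525047 (neutrophil table, 8 of 10 libraries), so that 1 read was worth between 0.508 and 2.98 units. Comparisons within a table share groups (IL10R and CX in the rescue table, wt in the neutrophil table) and are not independent of each other. The targeted gene Il10ra was lower in the deficient libraries of every table with 1 exception: the library labelled IL10R 2 of the first table stood at 361, beside 371, 501 and 689 in CXhet and 9.26 and 65.9 in the other two IL10R libraries. Macrophage identity genes (13 listed, Csf1r, Adgre1, Cx3cr1 and the C1q chains among them) took 0.593% to 3.56% of the summed values of a library. Of 9 defining neutrophil markers only Ly6g, S100a8, Retnlg and Ltf were listed in any table, the last only in the neutrophil table and Retnlg in 2 tables. Mpo, Elane, Ngp, Camp and Cxcr2 are not analysed here. In bulk RNA, fewer cells of a type and less RNA per cell cannot be told apart. The 3 tables were normalized separately, so levels are compared within a table only.

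S100a9 and Cxcl5 were raised in Il10ra-deficient macrophages of the first table and of the chimeras. Cd177 was raised in deficient macrophages of the first and rescue tables and lowest under antibiotics, and Csf3r was raised in the first table and under antibiotics. Differences are on the scale log2(scaled value + pseudocount), with their standard error (SE), and a gene was called when the Benjamini-Hochberg adjusted p of limma over all genes of the table was under 0.05. A filter on the mean over all libraries of a table can be passed through the group where a gene is high, as S100a9 did in each table and Cxcl5 did in the rescue and neutrophil tables, so the counts that follow describe and do not support. IL10R against CXhet called the 3 members that passed the filter, where 8.69% of all genes were called, and the fourth, Cxcl5, was called without a filter, where 8.76% were. IL10R against CX called 1 of 4 (9.91% of all genes), and IL10R_P19 against IL10R called none (2.43%). Neither IL10R_P19 against CX nor IL10R_abx against littermate_abx called any (0.0302% in each). Antibiotic and untreated libraries differed in much of the table. IL10R_abx against IL10R called 3 of 4 members (57.8% of all genes). Littermate_abx against CX called 2 of 4 (34.0%) and IL10R_abx against IL10R_P19 2 of 4 (48.3%), so these shares were near the background. Treatment and the cell make-up of the libraries cannot be told apart in them, and littermate_abx and CX are also differently titled controls. The test of whether Il10ra deficiency acted differently with and without antibiotics called none (0.106%). In the chimeras ko_igg against wt called 2 of 4 (9.19%), ko_ly6g against wt 2 of 4 (4.34%) and ko_ly6g against ko_igg none (0%).

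**Figure D1:**
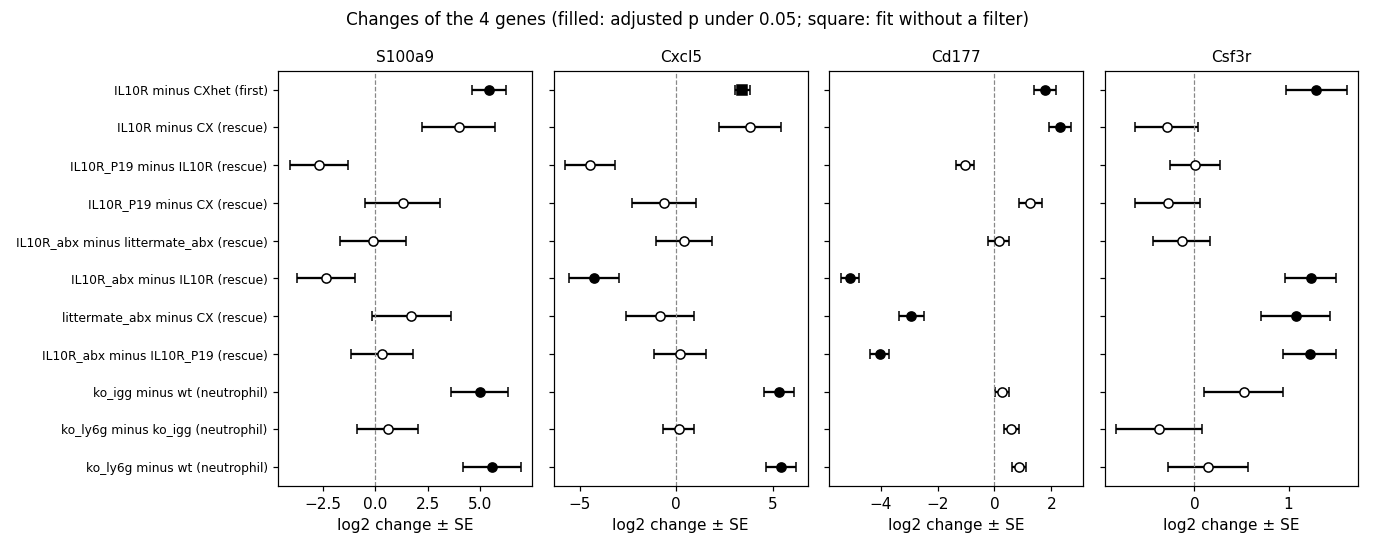
Changes of the 4 genes in the 11 comparisons between title groups, as log2 change (horizontal axis) with its SE as the bar, filled where the adjusted p of limma was under 0.05. The square for Cxcl5 in the first table is from the fit without a filter; S100a9 and Cxcl5 lie far to the right for IL10R and for ko groups against their controls, and Cd177 lies far to the left under antibiotics, down to -5.07.

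Cxcl5, the neutrophil-attracting chemokine of the group, was higher in the Il10ra-deficient libraries than in the controls of the first table and of the chimeras, and in 4 of 5 untreated IL10R libraries of the rescue table than in CX. Scaled values of 13.7, 5.59 and 5.56 in CXhet compared with 79.3, 110.1 and 95.3 in IL10R of the first table. The highest of these, 110.1, was in IL10R 2, the library with Il10ra near the CXhet level. The groups did not overlap, and the lowest deficient library stood well above the highest control. Its mean was 94.9 ± 15.4 (SD, n = 3) against 8.28 ± 4.68 (n = 3), and the change was 3.42 (SE 0.39, limma without a filter, adjusted p = 0.00143).

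Among the rescue libraries Cxcl5 stood at 618, 84.0, 89.8, 76.7 and 1.61 in IL10R 27, 32, 61, 67 and 68, and at 4.14 and 2.85 in CX. Thus 4 of 5 deficient libraries were high and IL10R 68, with 2 reads of the gene, was as low as the controls. The change of 3.82 (SE 1.60) did not pass (limma adjusted p = 0.132), and without IL10R 68 it was 4.96 and was called (adjusted p = 0.0104). With IL10R 27 left out instead it was 2.99 (adjusted p = 0.194).

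Loss of p19 went with Cxcl5 values of 4.35, 2.85, 0.651 and 1.02, all below those of the 4 high IL10R libraries. Against IL10R the change was -4.45 (SE 1.28, limma adjusted p = 0.0708), short of the threshold. The same comparison was called without the filter (adjusted p = 0.0347), by edgeR on the recovered reads (-6.33, adjusted p = 0.0167) and without IL10R 68 (-5.59, adjusted p = 0.00191). From CX the P19 libraries differed by -0.63 (95% interval -4.09 to 2.84), an interval too wide to show that they are alike.

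Under antibiotics Cxcl5 was 4.35, 1.88, 6.78 and 0 in IL10R_abx and 1.03, 2.71 and 1.05 in littermate_abx. These groups overlapped, and the difference of 0.41 (SE 1.46, limma adjusted p = 0.915) was far within its error. Compared with untreated IL10R, Cxcl5 fell by 4.24 in IL10R_abx (SE 1.28, adjusted p = 0.00808), and it was called also without IL10R 27 (-3.42, adjusted p = 0.0164). Littermate_abx against CX gave -0.84 (SE 1.75, adjusted p = 0.750). IL10R_abx and IL10R_P19 differed by 0.20 (95% interval -2.63 to 3.03).

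The chimeras gave the steepest contrast for Cxcl5: 23.8, 7.33, 2.45 and 16.8 in wt, 429.8, 428 and 399.6 in ko_igg, and 139, 1416 and 485 in ko_ly6g. No deficient library overlapped with wt, and the ko_igg libraries lay within a narrow band while the ko_ly6g libraries spread widely. Changes against wt were 5.31 (SE 0.77, limma adjusted p = 0.00294) for ko_igg and 5.44 (SE 0.77, adjusted p = 0.00395) for ko_ly6g. With edgeR, on the 8 libraries with recovered reads, ko_igg against wt no longer passed (4.75, adjusted p = 0.0631). The Ly6g antibody changed Cxcl5 by 0.13 against the control antibody, with a 95% interval from -1.69 to 1.95 that leaves both a rise and a fall possible.

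The other neutrophil-attracting chemokines are given gene by gene. Cxcl2, an abundant macrophage chemokine, was not called in IL10R against CXhet (0.07, SE 0.30) or against CX (-0.50, SE 0.46), and Cxcl1 was not called there either (0.90, SE 0.44, and 0.96, SE 0.60). Cxcl3 was listed in the first and neutrophil tables only and was called in the first without a filter (2.74, SE 0.53, limma adjusted p = 0.0135), where CXhet held 5.59 to 18.8 and IL10R libraries ranged from 41.0 to 135. The chimeras gave the same direction for Cxcl3, 3.57 (SE 0.81, adjusted p = 0.0212) for ko_igg and 3.51 (SE 0.81, adjusted p = 0.0364) for ko_ly6g against wt, again without a filter. With antibiotics Cxcl2 rose by 1.503 against IL10R (SE 0.37, adjusted p = 0.00214) and by 1.37 against IL10R_P19 (SE 0.39, adjusted p = 0.00761), the direction opposite to Cxcl5 against IL10R. Cxcl1 rose by 2.03 in littermate_abx against CX (SE 0.66, adjusted p = 0.0254). Of the chemokine list 2 genes were tested in the first table (median change 0.48, all genes 0.00), 3 in the rescue table (median 0.96 for IL10R against CX, all genes 0.01) and 3 in the neutrophil table (median 0.62 for ko_igg against wt, all genes 0.06). Cxcl5 itself is 1 of the listed chemokines.

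**Figure D2:**
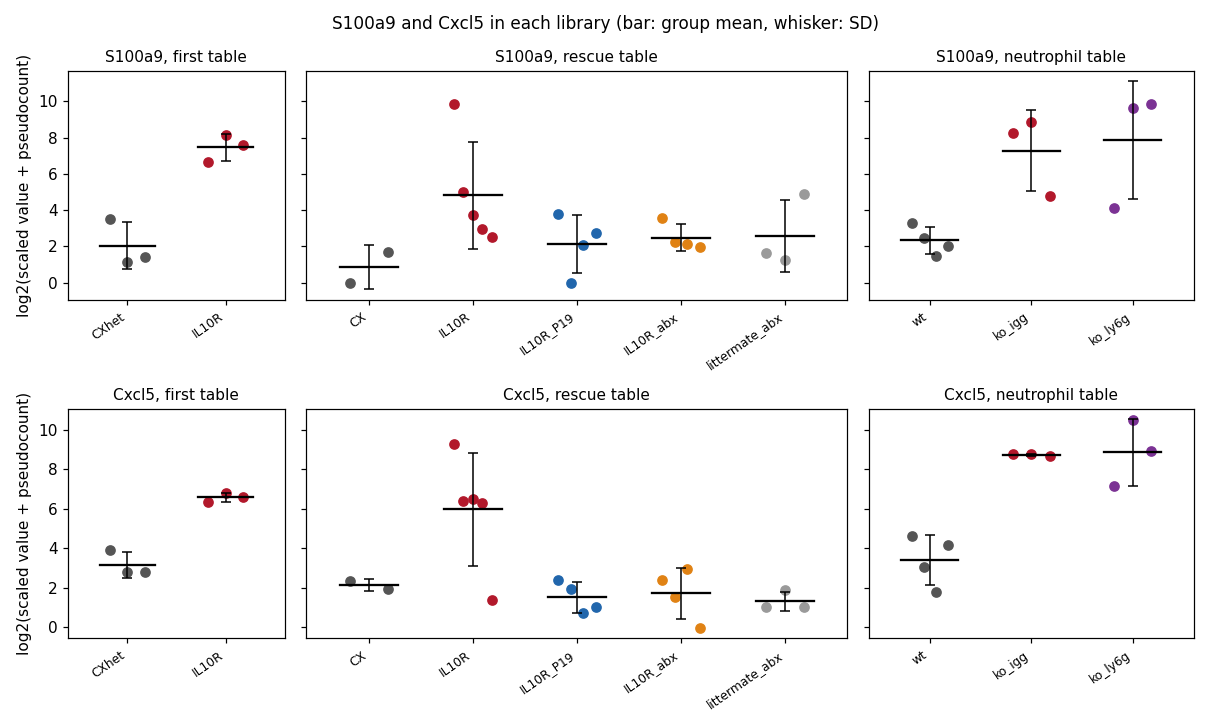
S100a9 (upper row) and Cxcl5 (lower row) in each library, as log2(scaled value + pseudocount) on the vertical axis, by title group on the horizontal axis, with 1 panel per table, group means as bars and SD as whiskers. Most IL10R and all ko libraries lie above the controls, IL10R 68 lies among the controls for Cxcl5, ko_ly6g 5 lies far below the other two of its group for S100a9, and antibiotic and P19 libraries hold scaled Cxcl5 values of at most 6.78.

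Csf3r, the G-CSF receptor, was expressed in every library, rose in Il10ra-deficient macrophages of the first table and was not called for the deficiency in the other two. CXhet libraries held 145, 85.7 and 63.9, IL10R libraries 214, 317 and 178. The highest of these, 317, was in IL10R 2, the library with high Il10ra. The groups did not overlap, and the means were 98.3 ± 42.1 and 236 ± 72.4 (SD, n = 3 each). The rise of 1.29 (SE 0.33, limma adjusted p = 0.0434) was lost when any 1 of 5 of the 6 libraries was left out (all except CXhet 1; adjusted p 0.0627 to 0.155).

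No such rise was seen in the rescue table, where Csf3r was 92.3, 45.6, 40.5, 35.7 and 29.8 in IL10R and 55.9 and 54.7 in CX. IL10R 27 was the highest and the other 4 lay below both CX libraries. The change was -0.29 (SE 0.33, 95% interval -0.99 to 0.40), and -0.55 (adjusted p = 0.206) without IL10R 27. IL10R_P19 libraries, at 46.1, 52.3, 40.4 and 42.7, differed from IL10R by 0.01 (95% interval -0.55 to 0.57), and the sign of this difference turned with the scaling (-0.01 at equal library totals). Against CX they differed by -0.29 (95% interval -1.01 to 0.44).

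Antibiotics went with higher Csf3r in IL10R_abx against both untreated deficient groups and in littermate_abx against CX. Values were 163, 118, 62.7 and 108 in IL10R_abx and 113, 126 and 115 in littermate_abx, all above both CX libraries, while IL10R_abx overlapped with IL10R through IL10R 27. Against IL10R the rise was 1.23 (SE 0.27, limma adjusted p = 6.10e-04), against IL10R_P19 1.23 (SE 0.28, adjusted p = 0.00141) and, for littermates against CX, 1.08 (SE 0.36, adjusted p = 0.0284). The littermate call was lost when any 1 of its 5 libraries was left out (adjusted p 0.0540 to 0.121). Between IL10R_abx and littermate_abx the difference was -0.14 (95% interval -0.77 to 0.50). Scaling libraries to equal totals moved the median of all genes by -0.20, -0.13 and -0.17 in these 3 antibiotic comparisons, and Csf3r then rose by 1.04, 0.94 and 1.05, each still called.

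Of the macrophage identity genes 12 of 13 were higher and 1 lower in IL10R_abx against IL10R (57.8% of all genes called, median 1.66 against 0.03 for all genes), 7 of 13 higher in littermate_abx against CX (34.0% called, median 0.61 against 0.04) and 11 of 13 higher in IL10R_abx against IL10R_P19 (48.3% called, median 1.03 against 0.04). Their summed share was 2.39% to 3.10% in IL10R_abx and 2.82% to 3.08% in littermate_abx, against 2.09% to 2.10% in CX, 0.955% to 1.25% in IL10R and 1.13% to 1.80% in IL10R_P19. Set against that sum, a ratio chosen after the values were seen, Csf3r per 1000 units was 1.36 to 3.53 in IL10R_abx and 1.72 to 5.27 in IL10R, which overlap, and 2.32 to 2.84 in littermate_abx against 1.82 to 1.83 in CX. The part of the macrophage genes in the Csf3r result was not tested. IL10R against CX, where Csf3r was not called, had 10 of 13 macrophage identity genes lower (9.91% of all genes called, median -1.01 against 0.01), and 4 of 5 IL10R libraries, at 2.76 to 5.27, had a ratio above CX, with IL10R 68 at 1.72. In the first table the same ratio was 2.95 to 4.41 in IL10R and 1.29 to 1.64 in CXhet. The chimeras had ratios of 1.85 to 2.49 in wt, 3.42 to 7.64 in ko_igg and 3.66 to 4.35 in ko_ly6g, so that neither ko group overlapped with wt on this ratio. Csf3r itself overlapped between these groups. The macrophage genes had median changes of -0.66 in ko_igg and -0.77 in ko_ly6g against wt, beside 0.06 for all genes in both. A lower sum raises the ratio of an unchanged gene too, so this separation is not a rise of Csf3r by itself.

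Downstream of the receptor, the G-CSF signalling list (16 genes with Csf3r, 14 tested) had 2 members higher in IL10R against CXhet, Csf3r itself and the kinase Jak2 (1.08, SE 0.24, limma adjusted p = 0.0264). Its median change was 0.32 against 0.00 for all genes, of which 8.69% were called. In the rescue table IL10R against CX had 1 lower, the kinase Lyn (-0.65, SE 0.20, adjusted p = 0.0431), and none higher, where 9.91% of all genes were called. With antibiotics 12 of 14 rose and Jak2 fell against IL10R (57.8% of all genes called, median 1.04, all genes 0.03), and 8 of 14 rose in littermates against CX (34.0% called, median 0.69, all genes 0.04). Socs3, the feedback inhibitor of this pathway, rose by 2.04 (SE 0.24, adjusted p = 6.92e-07) and 1.85 (SE 0.32, adjusted p = 2.73e-04) there, and the transcription factor Stat3 by 1.20 and 1.80. In the chimeras no gene of the list was called in any of the 3 comparisons. Of all genes 9.19% were called in ko_igg against wt, 4.34% in ko_ly6g against wt and 0% between the antibodies.

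In the neutrophil table Csf3r was 193, 68.7, 107.11 and 69.2 in wt, 136, 187 and 116 in ko_igg, and 58.5, 147 and 156 in ko_ly6g. All 3 groups overlapped, with the highest value in wt 1 and the lowest in ko_ly6g 5. Both libraries stood apart in the share of macrophage identity genes, at 3.41% in wt 1 against 1.21% to 1.61% in the other wt libraries and at 0.593% in ko_ly6g 5 against 1.34% and 1.42% in the other ko_ly6g libraries. Changes were 0.52 (95% interval -0.41 to 1.46) for ko_igg and 0.15 (-0.79 to 1.08) for ko_ly6g against wt, and -0.38 (-1.38 to 0.62) between the antibodies, none called by limma. Without wt 1 the changes against wt were 0.84 (adjusted p = 0.141) and 0.46 (adjusted p = 0.480). Without ko_ly6g 5 the ko_ly6g change was 0.60 against wt (adjusted p = 0.524) and 0.08 against ko_igg (adjusted p = 0.998).

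Cd177, the neutrophil surface protein, was present in all libraries, and in the rescue table it rose in IL10R against CX and fell under antibiotics. IL10R libraries 27, 32, 61, 67 and 68 held 420.0, 436, 542, 485 and 225, IL10R_P19 held 269, 186, 169 and 172, and CX held 105.6 and 62.1. Antibiotic libraries held 8.71, 18.8, 8.48 and 10.6 in IL10R_abx and 6.20, 20.3 and 7.38 in littermate_abx. The order of means was IL10R (422 ± 119.8), IL10R_P19 (199 ± 47.0), CX (83.8 ± 30.8), then IL10R_abx (11.6 ± 4.87) and littermate_abx (11.3 ± 7.83), the last 2 indistinguishable. IL10R and IL10R_P19 overlapped through IL10R 68 and IL10R_P19 100, and both antibiotic groups lay below every untreated library.

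The rise in IL10R against CX was 2.31 (SE 0.40, limma adjusted p = 0.00307), and ranged from 1.93 to 2.69 over the single omissions. The call was lost without CX 3 (adjusted p = 0.0601), which leaves 1 CX library, assumed to vary like the other groups. IL10R_P19 against IL10R gave -1.05 (SE 0.32, adjusted p = 0.0936), called by edgeR (-1.09, adjusted p = 0.0171) and without IL10R 68 (-1.26, adjusted p = 0.0244). IL10R_P19 against CX gave 1.26 (SE 0.41, 95% interval 0.39 to 2.13, adjusted p = 0.875), in a comparison that called 2 genes in all, with 333 at an unadjusted p under 0.05. With antibiotics Cd177 fell, with changes of -5.07 in IL10R_abx against IL10R (SE 0.32, adjusted p = 1.79e-09), -4.03 against IL10R_P19 (SE 0.34, adjusted p = 1.16e-07) and -2.92 in littermate_abx against CX (SE 0.44, adjusted p = 8.20e-05). The effect of Il10ra deficiency was larger without antibiotics by 2.16 (SE 0.54), which did not pass over all genes (adjusted p = 0.102) and did without IL10R 68 (2.37, adjusted p = 0.0273).

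Epithelial transcripts moved with Cd177 under antibiotics. All 18 listed epithelial markers (Epcam, Krt20, Muc2 and others) were lower in each of the 3 antibiotic comparisons, with medians of -2.13 against IL10R, -2.06 for littermates against CX and -1.89 against IL10R_P19, beside 0.03, 0.04 and 0.04 for all genes. Of all genes 57.8%, 34.0% and 48.3% were called in these comparisons. Their summed share was 1.73% to 1.92% in CX, 1.92% to 2.31% in IL10R and 1.72% to 2.21% in IL10R_P19, against 0.337% to 0.535% in IL10R_abx and 0.296% to 0.456% in littermate_abx. Per 1000 units of that sum, a ratio chosen after the values were seen, Cd177 was 1.26 to 2.13 in IL10R_abx and 1.21 to 2.83 in littermate_abx, below the 7.06 to 18.5 of IL10R and the 6.32 to 8.74 of IL10R_P19, while CX (2.53 to 3.74) overlapped with littermate_abx. The ratio in IL10R and IL10R_P19 did not overlap with that in CX. The part of epithelial RNA in the Cd177 differences was not tested.

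**Figure D3:**
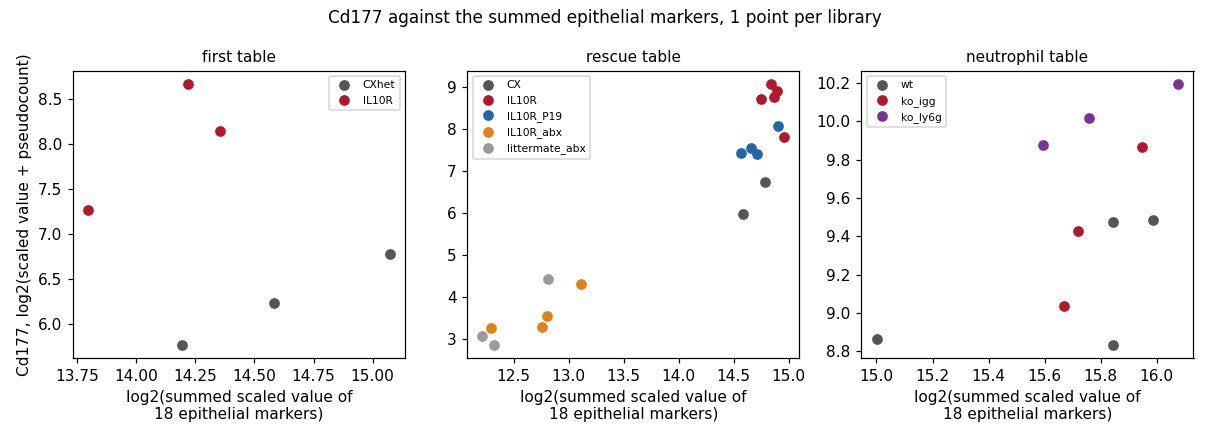
Cd177 as log2(scaled value + pseudocount) on the vertical axis against log2 of the summed scaled value of 18 epithelial markers on the horizontal axis, with 1 point per library, coloured by title group, and 1 panel per table. In the rescue table the antibiotic libraries lie low on both axes and IL10R lies above CX at a like epithelial sum, and in the first table IL10R lies above CXhet. In the neutrophil table ko_igg and wt overlap on both axes, and ko_ly6g lies above both in Cd177.

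First-table Cd177 values were 53.0, 73.6 and 108 for CXhet and 405, 153 and 281 for IL10R. The groups did not overlap, and the change was 1.77 (SE 0.38, limma adjusted p = 0.0238). The call was lost without CXhet 1, CXhet 2 or IL10R 3 (adjusted p 0.0636 to 0.0971) and kept without IL10R 2, the library with high Il10ra (2.15, adjusted p = 0.00496). Epithelial markers were not higher in IL10R, at 0.523% to 0.871% against 0.752% to 1.51% in CXhet, and Cd177 per 1000 epithelial units was 10.7 to 21.2 against 2.83 to 3.15.

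Among the chimeras Cd177 was 464, 716, 709 and 455 in wt, 524, 687 and 931 in ko_igg, and 1172, 1034 and 939.8 in ko_ly6g. The ko_igg libraries overlapped with wt (0.28, SE 0.25, limma adjusted p = 0.495). Each ko_ly6g library exceeded every library of the other groups, the lowest narrowly, at 939.8 against 931 in ko_igg 18. That rise did not pass, at 0.87 against wt (SE 0.25, adjusted p = 0.0766) and 0.59 against ko_igg (SE 0.26, 95% interval 0.01 to 1.17, adjusted p = 1.000). In the latter comparison no gene was called by limma or edgeR, and 127 genes had an unadjusted p under 0.05 in limma. No library titled with the neutrophil-depleting antibody was lower in Cd177 than any other library of the table. Pecam1, which encodes the partner of CD177, was called higher in IL10R against CXhet (0.91, SE 0.23, adjusted p = 0.0423) and lower in the 3 antibiotic comparisons (-0.90, -1.03 and -1.07), and was not called in the chimeras. The integrin genes Itgam and Itgb2, the other tested genes of the list of CD177 partners, went the other way from Pecam1 in those 3 antibiotic comparisons, both called higher (Itgam 1.83, 0.75 and 1.13, Itgb2 0.92, 0.58 and 0.94).

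**Figure D4:**
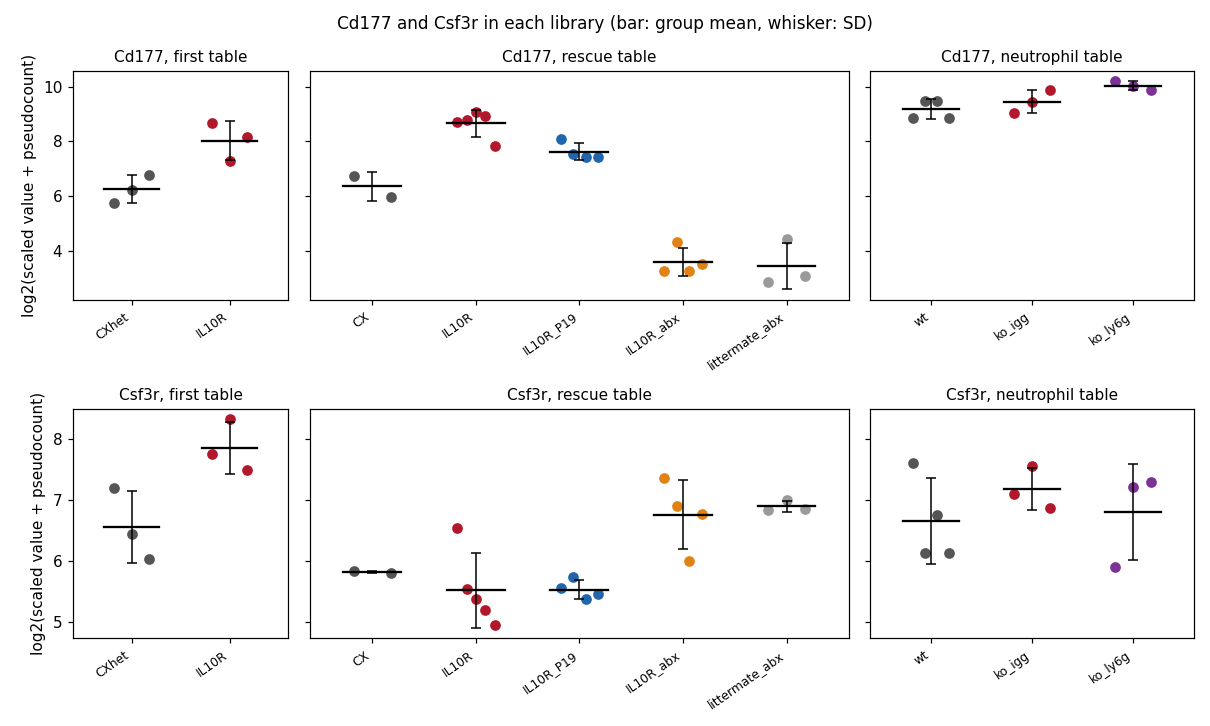
Cd177 (upper row) and Csf3r (lower row) in each library, as log2(scaled value + pseudocount) on the vertical axis, by title group on the horizontal axis, with 1 panel per table, group means as bars and SD as whiskers. Cd177 falls to its lowest level in both antibiotic groups while Csf3r is higher there, and the 3 ko_ly6g libraries hold the highest Cd177 of their table.

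S100a9, the calprotectin chain, was called higher in the Il10ra-deficient libraries of the first table and of the chimeras, and not in those of the rescue table. CXhet libraries of the first table held 10.3, 0.932 and 1.39, which is 6, 1 and 1 reads, and IL10R libraries held 100.5, 284 and 189. The groups stood far apart, with means of 4.19 ± 5.26 and 191 ± 91.6 (SD, n = 3 each). The rise was 5.42 (SE 0.80, limma adjusted p = 0.00573) and was lost only without IL10R 3 (adjusted p = 0.0599), among the 6 single omissions, and without IL10R 2 it was 5.08 (adjusted p = 0.0110).

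In the rescue table a single library carried most of the signal. IL10R 27 held 925 (711 reads), and IL10R 32, 61, 67 and 68 held 31.1, 12.3, 6.83 and 4.83. CX held 0 and 2.28, IL10R_P19 13.04, 0, 3.26 and 5.59, IL10R_abx 10.9, 3.76, 3.39 and 2.88, and littermate_abx 2.07, 1.35 and 28.4. Every IL10R library was above both CX libraries, but 3 of the 5 lay within the range of IL10R_P19 or littermate_abx. The change against CX was 3.97 (SE 1.73, limma adjusted p = 0.149) and 2.71 (adjusted p = 0.220) without IL10R 27. Against IL10R, IL10R_P19 gave -2.67 (SE 1.39, adjusted p = 0.354) and IL10R_abx -2.34 (SE 1.39, adjusted p = 0.158). EdgeR called the latter (-5.33, adjusted p = 0.0314). Without IL10R 27 these 2 changes were -1.41 and -1.09. Other rescue comparisons of S100a9 were wide on both sides of 0, such as the interval of -3.40 to 3.20 for IL10R_abx against littermate_abx, whose difference of -0.10 became 1.05 without the littermate library at 28.4.

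The chimeras showed the same scatter at a higher level: 8.93, 4.58, 1.84 and 3.15 in wt, 305, 463 and 26.2 in ko_igg 14, 16 and 18, and 16.7, 796 and 925 in ko_ly6g 5, 6 and 7. No ko library overlapped with wt, and each antibody group had 1 library far below the other two. The rise was 4.96 (SE 1.36, limma adjusted p = 0.0474) for ko_igg and 5.55 (SE 1.36, adjusted p = 0.0492) for ko_ly6g. Both calls sat at the threshold and were lost with edgeR (adjusted p = 0.217 and 0.132), with 4 times the pseudocount (0.0583 and 0.0571) and when any 1 of 5 of the 7 libraries was left out (0.0750 to 0.181 and 0.0875 to 0.172). They were kept without wt 1 in both comparisons, without ko_igg 18 in the first and without ko_ly6g 5 in the second. The edgeR fit lacked wt 3 and ko_igg 16, whose reads could not be recovered. Between the antibodies the difference was 0.59 (95% interval -2.63 to 3.81), so the data bear on neither a loss nor a gain of S100a9 with the Ly6g antibody.

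S100a8, the other chain of calprotectin, was raised in the same groups of the first table and the chimeras as S100a9, and both were highest in IL10R 27 of the rescue table. Within a group the 2 genes did not always go together: in ko_igg 14 and 18 S100a9 was 305 and 26.2, and S100a8 was 31.4 and 26.2. It was 0, 1.86 and 0 in CXhet and 31.7, 44.0 and 58.8 in IL10R of the first table (4.67, SE 0.64, limma without a filter, adjusted p = 0.00315). Of the rescue libraries IL10R 27 held 183, IL10R 32 held 12.4 and none of the others exceeded 5.77. The wt chimeras held 0, 0, 1.84 and 0, ko_igg held 31.4, 67.998 and 26.2, and ko_ly6g held 23.3, 113 and 97.6, and both ko groups were called against wt without a filter (4.94, SE 0.73, adjusted p = 0.00289, and 5.66, SE 0.73, adjusted p = 0.00218). In the S100 family, S100a9 was the only 1 of 9 tested genes called in IL10R against CXhet (8.69% of all genes called, list median 0.22, all genes 0.00). In IL10R_abx against IL10R 6 of 9 fell and S100a4 rose (57.8% of all genes called, median -1.15, all genes 0.03). S100a14, an epithelial S100 gene, rose in IL10R against CX (1.12, SE 0.25, adjusted p = 0.0108) and fell in IL10R_abx against IL10R (-2.92, SE 0.20, adjusted p = 2.25e-09).

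**Figure D5:**
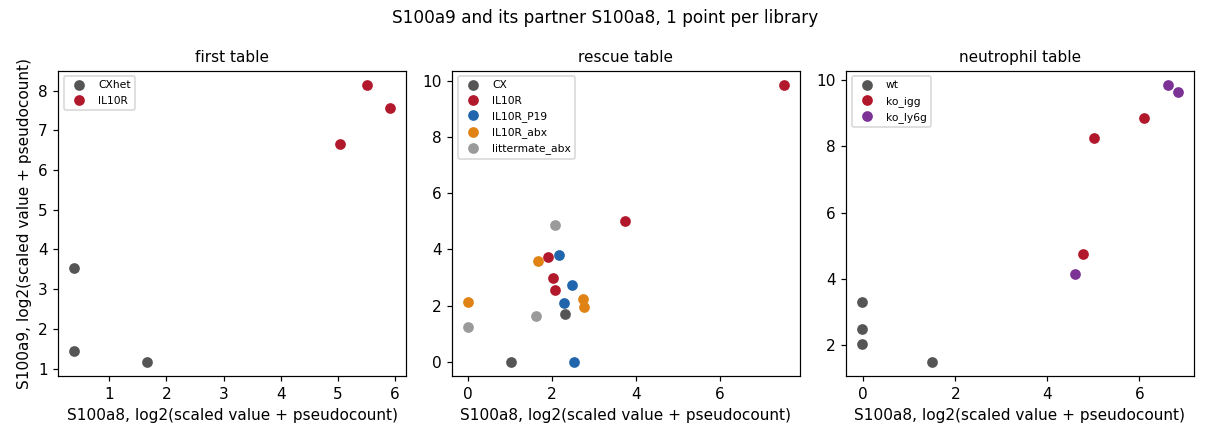
S100a9 (vertical axis) against S100a8 (horizontal axis), both as log2(scaled value + pseudocount), with 1 point per library, coloured by title group, and 1 panel per table. IL10R 27 stands alone at the upper right of the rescue table, and the IL10R and ko libraries stand to the right of the controls in the other two tables.

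Markers of neutrophils themselves moved with S100a9 in part. The summed defining markers were 15.4 to 38.9 in CXhet and 155 to 175 in IL10R (3 of 9 listed), with Retnlg at 0 in each CXhet library and at 19.8, 68.7 and 37.7 in IL10R. For the rescue table (2 of 9 listed) the sum was 25.7 to 276 in IL10R, 28.7 to 79.0 in IL10R_P19, 14.5 to 39.3 in CX, 8.48 to 23.1 in IL10R_abx and 2.71 to 14.5 in littermate_abx. Over the chimeras (4 of 9 listed) it was 49.3 to 83.2 in wt, 123 to 385 in ko_igg and 107.4 to 490.1 in ko_ly6g. Ly6g, the target of the antibody, was 50.6, 74.2, 79.6 and 45.1 in wt, 140.3, 203 and 54.6 in ko_igg, and 35.8, 289.9 and 87.0 in ko_ly6g, not called between any of them (ko_ly6g against ko_igg -0.26, SE 0.67). With antibiotics Ly6g was lower, as Cd177 was: without a filter its changes were -2.26 against IL10R (SE 0.43, limma adjusted p = 1.95e-04), -1.78 against IL10R_P19 (SE 0.46, adjusted p = 0.00348) and -1.76 in littermates against CX (SE 0.59, adjusted p = 0.0291). Among the ko_ly6g libraries its lowest value and the lowest S100a9 were in the same library, ko_ly6g 5. The part of neutrophil RNA in the differences of the 4 genes was not tested.

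Counted over the neutrophil lineage list (22 genes, the 3 members S100a9, Cd177 and Csf3r among them), 5 of 7 tested were higher in IL10R against CXhet: those 3, Trem1 (4.65, SE 0.97, limma adjusted p = 0.0215) and Fpr2 (3.23, SE 0.55, adjusted p = 0.00973), 2 receptors that neutrophils share with monocytes and macrophages. The 7 tested genes had a median change of 1.77, beside 0.00 for all genes, of which 8.69% were called. This count describes and does not support, as the 3 members are in it. IL10R against CX had 1 of 4 higher, Cd177 (9.91% of all genes called, median 1.01, all genes 0.01). IL10R_abx against IL10R_P19 had Csf3r higher and 2 of 4 lower, Cd177 and Il1r2 (48.3% of all genes called, median -0.49, all genes 0.04). In ko_igg against wt and in ko_ly6g against wt 2 of 6 were higher, S100a9 and G0s2 (3.89, SE 0.31, adjusted p = 9.39e-05, and 3.02, SE 0.31, adjusted p = 5.28e-04), with medians of 0.72 and 0.77. All genes had a median of 0.06 in both, and 9.19% and 4.34% of them were called. Lcn2, a siderophore-binding protein of neutrophil granules that epithelium and macrophages also make, was 0 to 8.55 in CXhet against 124 to 166 in IL10R, and 2.10 to 8.93 in wt against 162 to 235 in ko_igg and 170.0 to 375 in ko_ly6g. Lcn2 was called in each of these comparisons (5.26, 5.36 and 5.78), and in the rescue table, where its mean was under the filter, IL10R 27 held its highest value, 152, and IL10R_abx against IL10R was called without a filter (-2.37, SE 0.82, adjusted p = 0.0187). Only 2 granule genes were listed in the first table, and their sum was 33.4 to 95.1 in CXhet and 157 to 194 in IL10R. Most of the CXhet sum was therefore not Lcn2. In the rescue table (2 listed) the highest granule sum was in littermate_abx 490, at 171, above IL10R 27 at 159. Over the chimeras (3 listed) it was 3.67 to 17.9 in wt, 205 to 362 in ko_igg and 217 to 436 in ko_ly6g.

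Monocyte markers were called higher in part in the same comparisons, although the sort took cells without Ly6c and so would leave out Ly6c-positive monocytes. IL10R against CXhet had 4 of 7 higher (Plac8, Hp, Ly6c1 and Ccr2) and F13a1 lower, with a median of 2.03 against 0.00 for all genes and 8.69% of all genes called. Each ko group against wt had 3 of 5 higher (Hp, Ly6c1 and Ly6c2), with Fn1 lower in ko_ly6g, and medians of 1.59 for ko_igg (9.19% of all genes called) and 1.15 for ko_ly6g (4.34% called), both against 0.06 for all genes. Their summed share was 0.0684% to 0.233% in IL10R against 0.0664% to 0.0885% in CXhet, and 0.0558% to 0.138% in ko_igg and 0.0351% to 0.0961% in ko_ly6g against 0.0364% to 0.0399% in wt. Their part in the S100a9 and Cxcl5 results was not tested.

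Genes whose profile over the libraries lay closest to each member were found by the root-mean-square (rms) difference of centred log2 values, a description that the shared group structure of the libraries can drive. For Cd177 the closest gene in the first table (6 libraries) was Ly6g, at an rms difference of 0.16. Egfl7 (0.20), Clca3b (0.28), Sprr2b (0.39) and Saa1 (0.40) followed, beside an rms spread of Cd177 itself of 1.02. In the rescue table (18 libraries) the closest gene was Clca3b, at 0.62, followed by Sprr2a3 and the zinc transporter gene Slc39a4, beside a spread of 2.26. In the neutrophil table (10 libraries) it was Ceacam20. Cxcl5 was closest to Lrg1 (0.92) and Plet1 in the rescue table and to Clca4b (0.80), Sprr2h and Lcn2 in the neutrophil table. S100a9 was closest to Cd300lf in the first (0.46) and rescue (1.47) tables, followed by Irg1 and Ccl5 in the first, and to Sprr2h and Lcn2 in the neutrophil table. Csf3r lay closest to Tbkbp1, Glipr1 and Gpsm3 in the first table, to Ptpn1 and Vav1 in the rescue table (0.25 and 0.28) and to Il2rg and Nod1 in the neutrophil table. Tcirg1, a proton pump subunit, was among the 5 closest to Csf3r in both the rescue and the neutrophil table.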

How the data were processed

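Macrophage RNA was captured with oligo(dT) beads, reverse transcribed, pooled and amplified by in vitro transcription, per the labels' protocols. The submitters' processing notes name bcl2fastq, HISAT 0.1.6, HOMER and build mm9, with no roles. The authors deposited 3 tables of signal values per gene symbol: each is a read number divided by 1 factor per library, which was checked because whole reads came back within 0.01 read for 32 of 34 libraries (not wt 3 and ko_igg 16). The filters behind the deposited rows are not stated, and files with 15399 and 15605 rows without a gene name held no reads in those rows. Among the pairs within a group whose reads were recovered, none differed by less than counting noise.

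Differences were tested with limma 3.58.1 in R 4.3.3 (mean-variance trend, robust variances) on log2(value + pseudocount), with pseudocounts of 1.31, 0.997 and 0.982 for the first, rescue and neutrophil tables, all groups of a table in 1 fit. Genes with a mean above the lower quartile (53.2, 40.4 and 68.0005) were tested: 6766 of 9022, 6612 of 8816 and 6594 of 8793. P-values were Benjamini-Hochberg adjusted over all of them and called under 0.05. For a gene below the filter the fit without a filter is given. Alternatives were no filter, 4 times the pseudocount, equal library totals, only the groups compared, edgeR 4.0.16 with TMM on recovered reads, each library left out, and a replicate block. Deposited values carry counting error and no molecular identifiers are stated, so depth limits genes with few reads.

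The members and gene lists were chosen with earlier results of these data known. Genes named in the text are the 4 members, Il10ra, called members of each list (at most 4 a comparison), and genes of the neutrophil and chemokine lists. Genes among the 5 tested genes most like each member by rms difference are also named. Neither the listed neutrophil genes nor these closest genes are all named. The ratios to epithelial and macrophage sums were chosen after the values were seen. Promoter sequences are from RefSeq on GRCm38.p6, a different build from the tables, and no position was carried between builds.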

Additional observations from a re-analysis of the deposited data

Results flagged for a closer look

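Single libraries stood apart from their group in 5 of the 16 group-and-gene combinations of 4 or 5 libraries that were examined. The measure was the gap to the nearest library over the group's range, beyond the 95% critical value. It was taken on scaled values, not on the log2 scale of the other results, where no such test was run. Chance gives about 1 in 20 only for independent, normally distributed values, so the count is not evidence of an excess. In 3 of the 5 combinations the library was IL10R 27 of the rescue table, so these are not independent. S100a9 was 925 there, Cxcl5 618 and Csf3r 92.3, each the highest of the 5 IL10R libraries. The values without it stand beside the results they touch. S100a9 was 10.9 in IL10R_abx 160, above 2.88 to 3.76 in the other 3 libraries, a difference of a few reads. Cd177 was 269 in IL10R_P19 100, above 169 to 186 in the others.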

How the results depend on the processing

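Signs and calls held in most of the alternatives run, and the cause of the exceptions was not tested. The number of called members in IL10R against CX was 1, and 2 with edgeR. In IL10R_P19 against IL10R it was 0, and 1 without a filter, 1 with 4 times the pseudocount, 1 with only the groups compared and 2 with edgeR. In ko_igg against wt it was 2, and 1 with 4 times the pseudocount and 0 with edgeR, which had 8 of the 10 libraries. In ko_ly6g against wt it was 2, and 1 with 4 times the pseudocount, 1 at equal library totals, 1 with edgeR and 1 with only the groups compared. Leaving out 1 library at a time gave 0 to 2 in IL10R against CXhet (3 with all libraries, 0 without IL10R 3), 0 to 2 in IL10R against CX, 0 to 2 in IL10R_P19 against IL10R, 1 in littermate_abx against CX, 0 to 1 for the difference of the deficiency effect with antibiotics, 1 to 2 in ko_igg against wt and 1 to 2 in ko_ly6g against wt. Signs turned only for changes that were not called. Csf3r in IL10R_P19 against IL10R was -0.0141 at equal totals, -0.0582 with edgeR and -0.14 to 0.26 over the omissions, and S100a9 in IL10R_abx against IL10R_P19 was -0.28 with edgeR and -0.40 to 0.88 over the omissions. Over the omissions IL10R_abx against littermate_abx ranged from -0.77 to 1.05 for S100a9, -0.15 to 0.63 for Cd177, -0.34 to 0.12 for Csf3r and -0.0023 to 0.99 for Cxcl5. Cxcl5 in IL10R_abx against IL10R_P19 ranged from -0.21 to 0.78, and the difference of the Csf3r deficiency effect from -0.41 to 0.0434. In ko_ly6g against ko_igg the ranges were -0.68 to 2.45 for S100a9, -0.62 to 0.0757 for Csf3r and -0.69 to 0.98 for Cxcl5, and Csf3r in ko_ly6g against wt ranged from -0.10 to 0.60. With the replicate block for IL10R against CXhet, 3 members were called, as without it. Same-numbered libraries there correlated at -0.06, 0.15 and 0.35, and differently numbered ones at -0.30 to 0.15. So few pairs cannot show whether same-numbered libraries share more than a number. Over all genes edgeR called 287 where limma called 2.43% of the genes tested (IL10R_P19 against IL10R), 56 for 606 (ko_igg against wt) and 56 for 286 (ko_ly6g against wt). For the deficiency effect without antibiotics minus that with antibiotics edgeR called 24 where limma called 7. Genes with few reads, S100a9 and Cxcl5 in control and antibiotic libraries above all, are limited by depth.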
